A study of Mus musculus with 32 samples.

Results

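Voltage-gated potassium channel genes were examined in brain arteries of 4 groups of mice. The 7 genes were chosen by name as pore-forming subunits of the Kv1, Kv2 and Kv7 families: *Kcna1*, *Kcna2*, *Kcna3*, *Kcna5* and *Kcna6* (Kv1), *Kcnb2* (Kv2) and *Kcnq5* (Kv7). All 7 were found by their Ensembl identifiers among the 55357 genes of the read count table, and all 7 passed the filter on low counts in every comparison. The rule that chose them uses no measured level, although it was set with earlier results of these data known.

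Each channel of this class is built from 4 such subunits, which are opened by depolarization and let potassium leave the cell. In arterial smooth muscle the outflow pulls the membrane toward rest, closes voltage-gated calcium channels and opposes constriction, and Kv1, Kv2 and Kv7 channels are all known to take part. The same families serve nerve cells: Kv1.1 and Kv1.2, the products of *Kcna1* and *Kcna2*, sit beside the nodes of Ranvier of myelinated axons, and Kv7.5, the product of *Kcnq5*, carries part of a slow current that restrains firing. A dissected artery carries perivascular nerve fibers and may carry adhering brain tissue, so the channel RNA of an artery library need not come from its muscle.

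Every group held 8 mice with 1 library each. Mice without the Notch3 receptor of mural cells (*Notch3*-/-, constitutive inactivation) and their *Notch3*+/+ controls had an age of 3 months. Tg*Notch3*R169C mice, a model of the small vessel disease CADASIL that carries a mutant rat *Notch3* transgene on the X chromosome beside the intact mouse gene, and non-transgenic WT mice had an age of 12 months. All lines had been backcrossed to C57BL/6, no group was treated, the study used both sexes, and the labels do not give the sex of a mouse. Total counts per library ran from 20289487 to 54481934, and each of the 7 genes was counted at 29 to 5095 reads in each library. Nothing in the labels ties replicate numbers of different groups to each other. Levels are CPM, the usual count scaled to library size, here after TMM scaling, and levels of different genes are compared per kilobase of exon.

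The pore of each subunit holds the selectivity filter, the stretch that admits potassium in preference to sodium. To show how close the genes are to each other in a part they share, its codons in the Kv1 genes and *Kcnb2* (5 codons, in capitals, with 15 bases on either side) are printed 5′ to 3′ on the coding strand, as read from GENCODE vM21 transcripts (GRCm38). Each line is coding sequence.
Kcna1: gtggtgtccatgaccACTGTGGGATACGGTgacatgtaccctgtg
Kcna2: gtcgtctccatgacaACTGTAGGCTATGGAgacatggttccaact
Kcna3: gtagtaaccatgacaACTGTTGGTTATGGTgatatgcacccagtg
Kcna5: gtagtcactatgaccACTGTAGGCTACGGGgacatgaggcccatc
Kcna6: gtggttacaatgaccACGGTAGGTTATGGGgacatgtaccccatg
Kcnb2: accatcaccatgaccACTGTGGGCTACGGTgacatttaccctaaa

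In GRCm38 the windows lie at chr6:126642213-126642257 (*Kcna1*, minus strand), chr3:107105209-107105253 (*Kcna2*, plus), chr3:107037596-107037640 (*Kcna3*, plus), chr6:126533730-126533774 (*Kcna5*, minus), chr6:126738632-126738676 (*Kcna6*, minus) and chr1:15710031-15710075 (*Kcnb2*, plus). The 5 Kv1 genes have their whole coding sequence in 1 exon, against 2 coding exons in *Kcnb2* and 15 in *Kcnq5*. *Kcna5*, *Kcna1* and *Kcna6* are neighbors on chromosome 6, and *Kcna3* and *Kcna2* are neighbors on chromosome 3. Among the printed sequences the filter codons differed least between *Kcna1* and *Kcnb2*, at 1 base, and most between *Kcna6* and both *Kcna1* and *Kcnb2*, at 5 bases.

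Identity over the whole coding sequence was taken as matched bases of an alignment over the length of the longer sequence. By this measure the 10 pairs of Kv1 genes were 57.8% to 72.4% identical. The 11 pairs that include *Kcnb2* or *Kcnq5* were at 31.1% to 46.8%. Coding sequences held 1485 to 1806 bases in the Kv1 genes, 2721 in *Kcnb2* and 2856 in *Kcnq5*. Unequal length therefore lowers the values of pairs between a Kv1 gene and either of the longer genes. The longest run of bases shared without a mismatch was 91 bases, between *Kcna5* and *Kcna6*, and it was 31 bases or less in the other pairs. How reads that fit both genes within such a run were counted is not given in the sources used here, so a small part of the *Kcna5* and *Kcna6* counts is uncertain. In GENCODE vM21, *Kcnb2* overlaps *Gm38116* and *Gm37138* on its own strand and *Kcnq5* overlaps *Gm36949*, *Gm7658* and *Gm38243*, and *Kcna3* and *Kcna6* overlap *Gm27008* and *Gm26673* on the other strand. The libraries keep strand, and whether the counting used it is not stated.

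*Kcna2* was the most abundant of the 7 genes per kilobase. Over the 32 libraries it averaged 5.79 CPM per kb, followed by *Kcna6* (2.59), *Kcna1* (2.44), *Kcna5* (1.72), *Kcnb2* (1.30), *Kcna3* (1.03) and *Kcnq5* (0.714). The level of *Kcna2* lay at the 58.3rd percentile of all 18555 genes tested over the 4 groups, and that of *Kcnq5* at the 21.6th. *Kcna5*, which encodes the Kv1.5 subunit of arterial smooth muscle, stood below *Kcna2* and also below *Kcna1* and *Kcna6*, whose products are best known from axons.

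The order below *Kcna2* differed between groups. In *Notch3*+/+ mice the means per kb were 5.09 ± 1.21 (SD, n = 8) for *Kcna2*, 2.14 ± 0.417 for *Kcna6*, 1.93 ± 0.634 for *Kcna5* and 1.43 ± 0.838 for *Kcna1*. In WT mice aged 12 months they were 6.70 ± 1.57 for *Kcna2*, 4.20 ± 1.18 for *Kcna1*, 2.99 ± 0.915 for *Kcna6* and 1.70 ± 0.655 for *Kcna5*, with *Kcna1* directly below *Kcna2*. *Kcna2* was above the next gene in 8 of 8 mice in each of the 4 groups, and *Kcnq5* had the lowest mean in each. Between neighbors in the order the ranges of the mice overlapped, with the exception of *Kcna2* over *Kcna6* in *Notch3*+/+ mice.

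**Figure D1:**
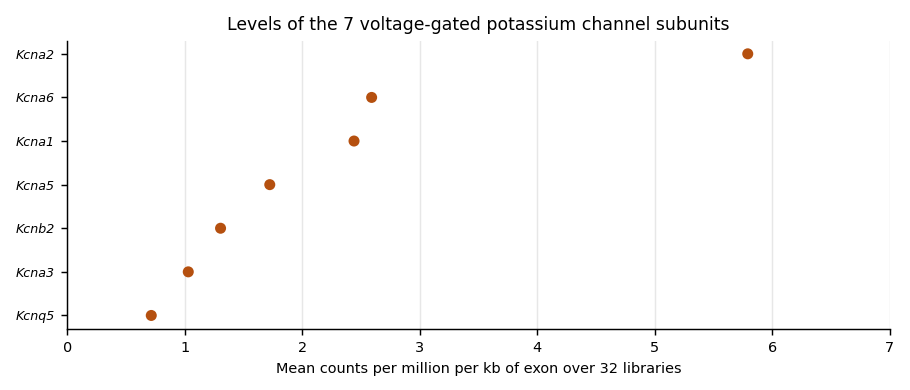
Mean level of the 7 voltage-gated potassium channel subunits (1 point each) over 32 artery libraries, in CPM per kilobase of exon on an axis that starts at 0. The points run from *Kcnq5* at 0.714 to *Kcna2* at 5.79.

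Among the other 33 pore-forming subunits of the class, *Kcnd3*, a Kv4 subunit, averaged 5.69 CPM per kb, *Kcnh2* 5.46 and *Kcnc1*, a fast Kv3 subunit of neurons, 3.81. Among the auxiliary subunits, *Kcnip3* averaged 16.7 CPM per kb, *Kcne4* 10.4, *Kcnab2*, which encodes a beta subunit of Kv1 channels, 5.83 and *Kcnip2* 2.93. The mean of *Kcne2* over the 32 libraries, 17.6 CPM per kb, joined unlike groups, at 0.556 in *Notch3*+/+ and 37.3 in WT mice, and it moved with the choroid plexus list within groups (slope 1.60, edgeR's adjusted p = 3.41e-27). Of the proteins that hold Kv1 channels in place on axons, *Dlg4*, *Lgi3*, *Adam22*, *Cntn2* and *Cntnap2* averaged 9.92, 4.53, 3.51, 3.09 and 1.57 CPM per kb. One of the 14 auxiliary genes listed, *Kcne5*, was not matched to a row.

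The tissue was checked against marker genes. The smooth muscle list (8 genes) summed to between 1100 and 4190 CPM, led by *Acta2*, and no smooth muscle gene was at 0. The neuron list (12 genes, led by *Snap25*) summed to between 257.7 and 1342 CPM, the oligodendrocyte list (8 genes, led by *Mbp*) to between 563.1 and 1833 CPM, and the Schwann cell list (6 genes) to between 26.3 and 518.7 CPM. The astrocyte list (7 genes, led by *Gjb6*) summed to between 2645 and 3796 CPM. Its group medians of 3125 to 3451 CPM were above those of the smooth muscle list, 1478 to 2925 CPM, in each group. All 12 neuron genes and all 8 oligodendrocyte genes were counted in each group, and 1 Schwann cell gene was at 0 in every *Notch3*+/+ library. The mean log2 CPM of the Schwann cell list over the 32 libraries held 5 of its 6 genes, since the filter on low counts removed the other. In 7 libraries (1 *Notch3*-/-, 2 Tg*Notch3*R169C and 4 WT) the choroid plexus list summed to 8807 CPM or more, led by *Ttr*, against medians of 269.5 to 344.4 CPM in the *Notch3*-/-, Tg*Notch3*R169C and *Notch3*+/+ groups. Neuron and glial markers were thus counted in every artery library.

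The smooth muscle list moved with the groups. Its mean log2 CPM was 0.63 lower in *Notch3*-/- than in *Notch3*+/+ mice (7.07 against 7.70, exact permutation test over 12870 divisions of the mice, two-sided, adjusted p = 0.00513 over 33 tests of marker lists). It was 0.28 lower in Tg*Notch3*R169C than in WT mice (6.59 against 6.87, adjusted p = 0.0496 in the same exact test) and 0.83 lower in WT mice aged 12 months than in *Notch3*+/+ mice aged 3 months (adjusted p = 0.00513, exact test). Fewer smooth muscle cells, less RNA of these genes per cell and a larger share of RNA from other tissue cannot be told apart in such libraries. The neuron list differed by 0.06, 0.34 and 0.38 in the same comparisons (exact test, adjusted p = 0.94, 0.425 and 0.410).

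**Figure D2:**
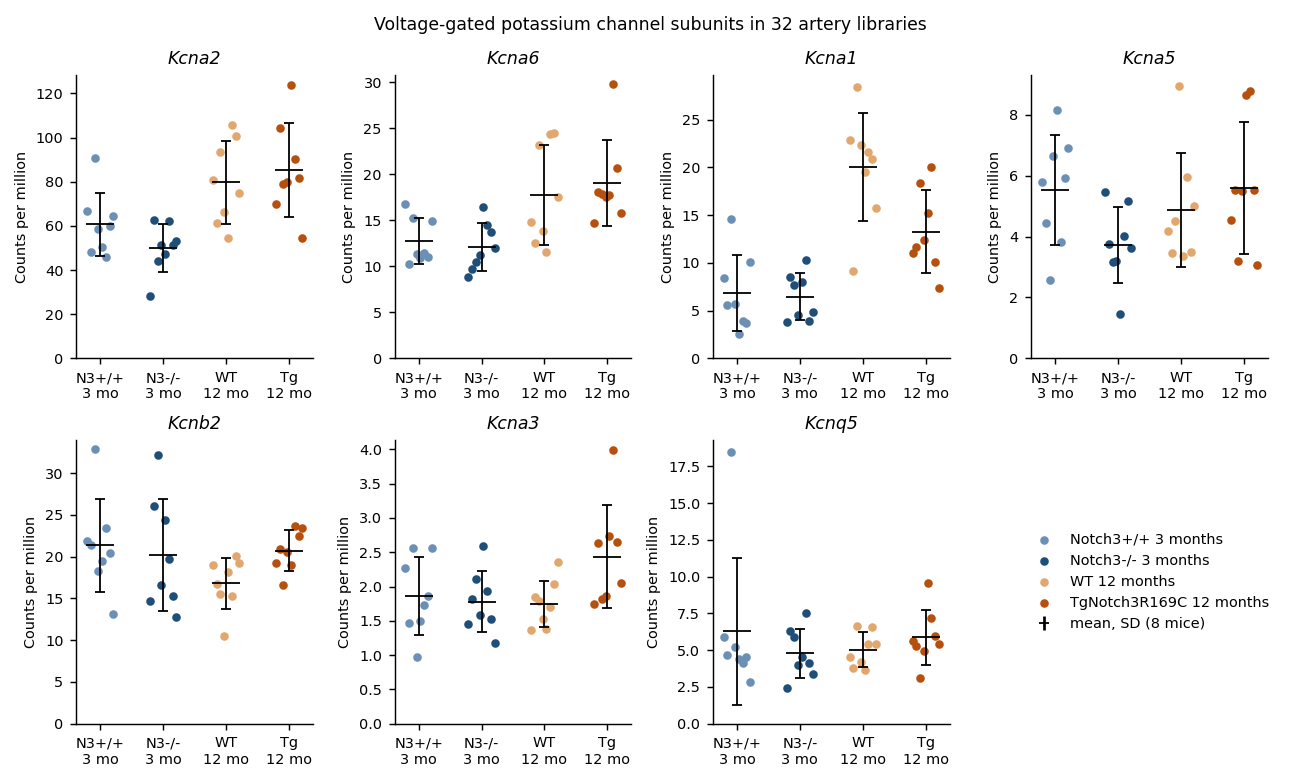
Level of each of the 7 subunits in CPM (vertical axes, starting at 0) in each of the 32 mice, by group; points are mice, and bars are the mean and SD of 8 mice. *Kcna1* has a higher mean in both groups aged 12 months than in both groups aged 3 months, and 1 *Notch3*+/+ mouse stands apart for *Kcnq5* at 18.4 CPM.

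The first comparison asked whether loss of *Notch3* changed the channels at 3 months. *Notch3* itself fell from a mean of 83.6 CPM to 16.2 CPM with its inactivation (log2 fold change −2.37, edgeR's adjusted p = 1.39e-10), and the groups did not overlap, as held for 0.322% of genes tested but for none of the 7. None of the 7 channel genes was called (Benjamini-Hochberg adjusted p below 0.05 over 17714 genes in edgeR's quasi-likelihood test, which called 0.649% of genes), and 1 of 7 had an unadjusted p below 0.05, against 7.69% of genes. All 7 fitted values were below 0, with a median log2 fold change of −0.08 against −0.0011 over all genes tested. The sign turned for *Kcna1*, *Kcna3*, *Kcna6*, *Kcnb2* and *Kcnq5* when single libraries were left out, and stayed for *Kcna2* and *Kcna5*. DESeq2's Wald test, which called 280 genes, called 0 of the 7 as well. The neuron list differed by 0.06 log2 units between these groups, and the smooth muscle list was 0.63 lower without *Notch3*.

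*Kcna5*, whose Kv1.5 channels limit the constriction of small arteries, had the largest difference. It was counted at 2.57 to 8.15 CPM (median 5.86) in *Notch3*+/+ mice and at 1.45 to 5.46 CPM (median 3.70) in *Notch3*-/- mice. The ranges overlapped, although 0 of 8 *Notch3*-/- mice lay above the *Notch3*+/+ mean. The log2 fold change was −0.56 (SE 0.248, 95% CI −1.09 to −0.04, adjusted p = 0.59 in edgeR's test). It did not pass the test over all genes, and the interval holds anything from 0.471 to 0.972 times the control level. The smooth muscle list was 0.63 log2 units lower in the same mice, and its part in the difference of *Kcna5* was not tested.

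Notch receptors act on their target genes through the DNA-binding protein RBPJ, whose core motif is TGGGAA. To give the sequence context of *Kcna5*, the 250 bases before its RefSeq start (GRCm38.p6, chr6:126535556-126535805, minus strand) are printed with matches of the motif on either strand in capitals.
Kcna5 promoter: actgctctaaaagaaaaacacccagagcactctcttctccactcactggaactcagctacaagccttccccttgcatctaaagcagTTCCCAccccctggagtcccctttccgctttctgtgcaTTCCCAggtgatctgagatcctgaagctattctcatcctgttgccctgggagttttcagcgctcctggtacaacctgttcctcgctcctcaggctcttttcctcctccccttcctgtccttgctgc

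The window of *Kcna5* holds 2 matches, both as TTCCCA on the gene's strand, and they begin 164 and 126 bases before the start. A match was found in 21.6% of the 32851 windows of the same length, and 2 or more in 2.77%. Of the 5 channel genes with an entry in the RefSeq table, *Kcnq5* holds 1 match in 1 of its 2 windows and *Kcna2*, *Kcna3* and *Kcna6* hold none. These are matches of letters, and binding was not measured.

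*Kcna2*, the Kv1.2 subunit of muscle and axon, ran from 46.0 to 90.8 CPM (median 59.3) in *Notch3*+/+ mice and from 28.5 to 62.5 CPM (median 51.3) in *Notch3*-/- mice. The groups overlapped, 2 of 8 *Notch3*-/- mice lay above the control mean, and the log2 fold change was −0.28 (SE 0.156, adjusted p = 0.756 in edgeR's test). *Kcnq5* ran from 2.81 to 18.4 CPM (median 4.62) and from 2.44 to 7.50 CPM (median 4.35). Its log2 fold change of −0.39 (SE 0.342, edgeR's adjusted p = 0.89) rested on 1 control mouse at 18.4 CPM, since it was 0.08 without that mouse. The same mouse, *Notch3*+/+ replicate 3, had the highest neuron list of its group, at 1151 CPM against a group median of 393.5.

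The other 4 genes lay close to their controls. *Kcna1*, *Kcna3*, *Kcna6* and *Kcnb2* had log2 fold changes of −0.08 (SE 0.328), −0.06 (SE 0.202), −0.07 (SE 0.14) and −0.08 (SE 0.197), with adjusted p of 0.974 to 0.989 in edgeR's test. The 95% CIs bound their changes unequally. For *Kcna6* it ran from 0.776 to 1.17 times the control level and for *Kcna1* from 0.586 to 1.53 times. *Kcna1* was therefore the least precisely measured of the 4.

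None of the 28 other pore-forming subunits, 12 auxiliary subunits and 7 axonal partners that could be tested was called in *Notch3*-/- mice either. *Kcnab1*, the Kvβ1 auxiliary subunit of Kv1 channels, is named here after its values were seen. Its mean was 25.0 ± 2.32 CPM (SD, n = 8) in controls against 18.8 ± 3.58 CPM without *Notch3*, a log2 difference of −0.41 (SE 0.104, adjusted p = 0.108 in edgeR's test) with 0 of 8 mice above the control mean. The smooth muscle list was 0.63 log2 units lower in the same mice, and *Kcnab1* had a slope of 0.67 on that list within groups (95% CI 0.28 to 1.07, adjusted p = 0.0568 in edgeR's test). The part of the smooth muscle markers in the difference of *Kcnab1* was not tested.

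The second comparison asked whether the mutant transgene changed the channels at 12 months. The *Notch3* count rose from a mean of 73.2 CPM in WT to 181.9 CPM with the transgene (log2 fold change 1.31, edgeR's adjusted p = 1.75e-05). These groups did not overlap, as held for 0.141% of genes and for none of the 7. The count is a sum in which reads of the rat transgene and of the mouse gene were not separated here. None of the 7 channel genes was called by edgeR's test over 17731 genes, of which 0.113% were called, and 3 of 7 had an unadjusted p below 0.05, against 7.27% of genes. Fitted values were above 0 for 6 of the 7 and below 0 for *Kcna1*. The median log2 fold change was 0.19, against −0.0074 over all genes.

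*Kcna1* was the gene with the lower values. It ran from 9.16 to 28.4 CPM (median 21.2) in WT mice and from 7.33 to 20.1 CPM (median 12.0) in Tg*Notch3*R169C mice. The groups overlapped, with 1 of 8 transgenic mice above the WT mean. The log2 fold change was −0.60 (SE 0.219, 95% CI −1.06 to −0.14, adjusted p = 0.611 in edgeR's test). The Schwann cell list, added after the values of *Kcna1* had been seen, was 0.55 log2 units lower in the same mice (3.74 against 4.29, exact permutation test, adjusted p = 0.410). The oligodendrocyte list was 0.10 lower and the neuron list 0.34 higher (exact test, adjusted p = 0.76 and 0.425). The part of these lists in the value of *Kcna1* was not tested.

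*Kcna3*, the Kv1.3 subunit of lymphocytes, microglia and dividing smooth muscle, and *Kcnb2*, the Kv2.2 subunit, had the opposite sign. *Kcna3* was at 1.74 to 3.99 CPM (median 2.34) in Tg*Notch3*R169C mice and at 1.37 to 2.36 CPM (median 1.74) in WT mice, and 7 of 8 transgenic mice lay above the WT mean although the groups overlapped. Its log2 fold change was 0.48 (SE 0.175, edgeR's adjusted p = 0.611). The lymphocyte list, low at a sum of 9.24 to 19.2 CPM in these mice, was nearly level between the groups (0.834 against 0.835 mean log2 CPM). The macrophage and microglia list was 0.05 log2 units lower and the neuron list 0.34 higher (exact permutation test, adjusted p = 0.716 and 0.425). Within groups *Kcna3* had a slope of 0.43 on the neuron list (edgeR's adjusted p = 0.0072). The part of these lists in the value of *Kcna3* was not tested. *Kcnb2* was at 16.6 to 23.7 CPM (median 20.7) and at 10.5 to 20.1 CPM (median 17.4), and its log2 fold change was 0.30 (SE 0.112, edgeR's adjusted p = 0.622), again with 7 of 8 mice above the WT mean.

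Without the 6 libraries of these groups that were rich in choroid plexus RNA, the log2 fold change was 0.38 for *Kcna3* (SE 0.261) and 0.16 for *Kcnb2* (SE 0.104), with adjusted p of 0.778 and 0.769 in edgeR's test. That of *Kcna1* was −0.66 in the same fit (SE 0.221, adjusted p = 0.5). The fit held 6 transgenic and 4 WT mice and called 2 genes in all. DESeq2 called 0 of the 7 genes over all mice, among 74 genes called.

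The remaining 4 genes had log2 fold changes of 0.10 for *Kcna2* (SE 0.161), 0.10 for *Kcna6* (SE 0.181), 0.19 for *Kcna5* (SE 0.249) and 0.22 for *Kcnq5* (SE 0.189). Adjusted p lay between 0.803 and 0.919 in edgeR's test. With the neuron list as a covariate the values of *Kcna2*, *Kcna5* and *Kcna6* turned to −0.09, −0.11 and −0.06. With the smooth muscle list as a covariate those of *Kcna2*, *Kcna5* and *Kcnq5* turned to −0.03, −0.17 and −0.06. Without choroid-rich libraries those of *Kcna2*, *Kcna6* and *Kcnq5* turned to −0.05, −0.02 and −0.12. None of the 29 other pore-forming, 12 auxiliary and 7 axonal genes tested was called, while 24 of the 29 other pore-forming genes had values above 0 (median 0.33), against 8342 of all 17731 genes tested. The neuron list was 0.34 log2 units higher in the same mice (exact permutation test, adjusted p = 0.425), and its part in these values was not tested.

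The changes of the mutants were then set against each other. In a fit of all 4 groups, the change in Tg*Notch3*R169C mice minus the change in *Notch3*-/- mice was called for 0 of the 7 genes (edgeR, 18555 genes, 0.35% called), and 1 of 7 had an unadjusted p below 0.05, against 8.62% of genes. That gene was *Kcna5*, with a difference of 0.76 on the log2 scale (SE 0.364, 95% CI 0.02 to 1.50, adjusted p = 0.56). The differences were 0.62 for *Kcnq5* (SE 0.403) and 0.55 for *Kcna3* (SE 0.269), and that of *Kcna1*, −0.52 (SE 0.404), was the one value below 0. Both mutants were measured against controls of their own age, so age and mutation differ together in this contrast.

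**Figure D3:**
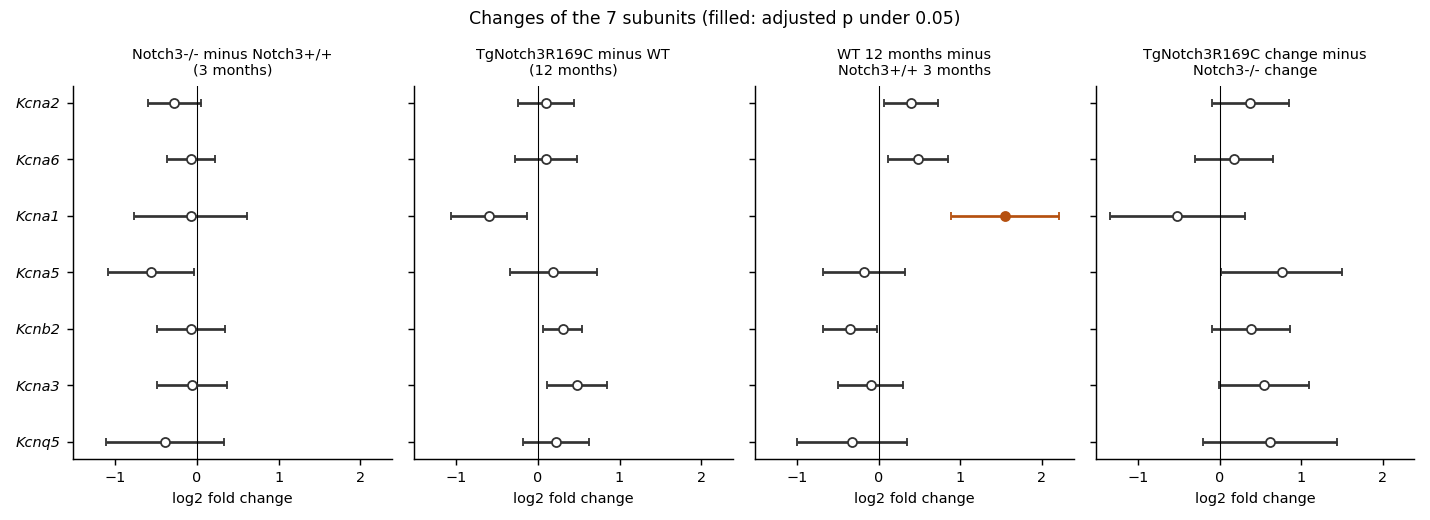
Log2 fold change of the 7 subunits (points) with 95% confidence intervals (bars) in 4 comparisons, given above each panel; filled points have an adjusted p below 0.05 in edgeR's test over all genes. *Kcna1* between the control groups, at 1.55, is the only filled point.

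The control groups differ in age and in line, and these cannot be told apart. Between WT mice aged 12 months and *Notch3*+/+ mice aged 3 months, edgeR called 7.92% of 17643 genes, and 1 of the 7 channel genes, *Kcna1*, was among the 3.87% that were higher at 12 months. With an unadjusted p below 0.05 there were 4 of 7, against 24.2% of genes. No member had groups that did not overlap, against 1.24% of genes. The median log2 fold change of the 7 was −0.10, against 0.0026 over all genes.

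*Kcna1* encodes Kv1.1, which in peripheral and central axons lies next to the nodes of Ranvier. It was counted at 2.55 to 14.6 CPM (median 5.68) in *Notch3*+/+ mice aged 3 months and at 9.16 to 28.4 CPM (median 21.2) in WT mice aged 12 months. All 8 older mice lay above the mean of the younger ones, and the groups overlapped through 1 older mouse at 9.16 CPM and 2 younger ones at 10.1 and 14.6 CPM. The log2 fold change was 1.55 (SE 0.313, 95% CI 0.89 to 2.21, adjusted p = 0.00755 in edgeR's test), a fold of 2.93 (95% CI 1.85 to 4.62). In the mutants *Kcna1* averaged 6.47 ± 2.47 CPM in *Notch3*-/- mice aged 3 months and 13.3 ± 4.32 CPM in Tg*Notch3*R169C mice aged 12 months (SD, n = 8).

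Oligodendrocyte, Schwann cell and pericyte markers were higher in the same older mice. The oligodendrocyte list was 0.72 log2 units higher (5.60 against 4.88, exact permutation test, adjusted p = 0.0256) and the Schwann cell list 1.62 log2 units higher (4.29 against 2.67, exact permutation test, adjusted p = 0.0231), each with 8 of 8 older mice above the younger mean. The pericyte list was 0.21 higher, also with 8 of 8 mice (exact test, adjusted p = 0.0231). The astrocyte list and the macrophage and microglia list differed by −0.01 and −0.02 (exact test, adjusted p = 0.9955 and 0.940). The *Kcna1* difference was 1.37 with the neuron list as a covariate (SE 0.236, edgeR's adjusted p = 0.00399) and was no longer called with the Schwann cell list as a covariate (1.05, SE 0.393, adjusted p = 0.236). The fit with the Schwann cell list, added after seeing the data, called 83 genes in all, against 1398 without a covariate. The *Kcna1* difference was not called either with the smooth muscle list as a covariate (1.04, SE 0.637, adjusted p = 0.511), a fit in which no gene of the table was called. Without the 4 WT libraries rich in choroid plexus RNA it was 1.68 (SE 0.37, adjusted p = 0.0386). The part of nerve and glial RNA in this difference was not tested beyond these fits.

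*Kcna2* and *Kcna6*, which encode subunits that assemble with Kv1.1, had values in the same direction that did not pass the test. *Kcna2* ran from 46.0 to 90.8 CPM at 3 months and from 54.7 to 105.5 CPM (median 77.9) at 12 months, with 7 of 8 older mice above the younger mean and a log2 fold change of 0.39 (SE 0.156, edgeR's adjusted p = 0.131). It was called without *Notch3*+/+ replicate 3 (0.50, adjusted p = 0.0372). *Kcna6* ran from 10.3 to 16.7 CPM (median 11.4) at 3 months and from 11.6 to 24.4 CPM (median 16.2) at 12 months, with a log2 fold change of 0.48 (SE 0.174, edgeR's adjusted p = 0.0978).

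*Kcnb2* had a value of the opposite sign. It was at 13.2 to 32.9 CPM (median 20.9) at 3 months and at 10.5 to 20.1 CPM (median 17.4) at 12 months, and 0 of 8 older mice lay above the younger mean, with a log2 fold change of −0.35 (SE 0.154, edgeR's adjusted p = 0.169). *Kcna3*, *Kcna5* and *Kcnq5* had log2 fold changes of −0.10 (SE 0.188), −0.18 (SE 0.24) and −0.33 (SE 0.317), with adjusted p of 0.576 to 0.795 in edgeR's test. That of *Kcnq5* was 0.145 without *Notch3*+/+ replicate 3. The interval of *Kcna5* ran from −0.69 to 0.33, and its value ran from −0.74 to −0.11 under other settings. The smooth muscle list was 0.83 log2 units lower in the same older mice. Whether *Kcna5* differed from that list, and the part of the list in its value, was not tested.

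Of the other channel genes, 4 were called between the control groups. *Kcng4*, a silent subunit that modifies Kv2 channels, was 1.60 higher (log2, SE 0.474, edgeR's adjusted p = 0.0477), and *Cntn2*, the axonal adhesion protein that clusters Kv1 channels, was 1.07 higher (log2, SE 0.262, adjusted p = 0.0198). *Kcng4* was at 1.70 to 5.48 CPM (median 1.90) in *Notch3*+/+ and 2.18 to 20.5 CPM (median 4.25) in WT mice, ranges that overlapped. Within groups both genes moved with the neuron list (slopes 0.96 and 0.72, edgeR's adjusted p = 0.00171 and 8.63e-06). Neither the part of that list in these differences nor that of choroid plexus RNA in WT libraries was tested. *Kcne2*, an auxiliary subunit, was 6.08 higher (log2, SE 1.22, adjusted p = 0.00722), at 0.172 to 3.56 CPM in *Notch3*+/+ and 0.241 to 232.9 CPM in WT mice. The choroid plexus list, with which *Kcne2* moved within groups, was 2.40 log2 units higher in the same WT mice (exact permutation test, adjusted p = 0.0853), of which 4 of 8 had libraries rich in choroid plexus RNA against 0 of 8 *Notch3*+/+ mice, and its part in this difference was not tested. *Kcne3* had a log2 fold change of −0.75 (SE 0.208, edgeR's adjusted p = 0.0349) at 0.405 against 0.669 CPM. The 4 genes belong to lists of 28 pore-forming, 12 auxiliary and 7 axonal genes tested, of which 1, 2 and 1 were called.

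Neural RNA was examined as another source of these transcripts by following it from mouse to mouse. Each gene was fitted over all 32 libraries with its group and with the mean log2 CPM of a marker list, so that the slope gives the log2 change of a gene per log2 unit of the list within groups. The 7 channel genes are in none of the lists. On the neuron list 5 of the 7 were called with a positive slope by edgeR's test, against 10.8% of 18555 genes called with a positive and 6.69% with a negative slope. On the smooth muscle list 0 of 7 were called, against 2.16% of genes.

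*Kcnq5* had the steepest slope on the neuron list, 0.82 (95% CI 0.57 to 1.07, adjusted p = 7.57e-06 in edgeR's test). It was followed by *Kcna1* at 0.60 (CI 0.26 to 0.94, adjusted p = 0.00976), *Kcna2* at 0.53 (CI 0.38 to 0.67, adjusted p = 1.20e-06), *Kcna6* at 0.51 (CI 0.35 to 0.67, adjusted p = 1.16e-05) and *Kcna3* at 0.43 (CI 0.20 to 0.67, adjusted p = 0.0072). The slope of *Kcna1* was no longer called without *Notch3*+/+ replicate 3 (0.48, adjusted p = 0.0872), and the other 4 were called whichever library was left out. A slope of 1 means that a gene changes in proportion to the markers, and among the 5 only the interval of *Kcnq5* included 1.

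*Kcna5* and *Kcnb2* were not called. *Kcna5* had a slope of 0.14 on the neuron list (95% CI −0.27 to 0.54, adjusted p = 0.716 in edgeR's test), which turned to −0.14 without the 7 libraries rich in choroid plexus RNA, and *Kcnb2* one of 0.18 (CI −0.05 to 0.41, adjusted p = 0.302). The interval of *Kcna5* overlaps those of the other genes, and a difference between slopes was not tested. On the smooth muscle list *Kcna5* had a slope of −0.48 (CI −1.33 to 0.37) and *Kcnb2* one of 0.08 (CI −0.56 to 0.73). The smooth muscle list had an SD of 0.19 to 0.27 log2 units within a group, against 0.42 to 0.59 for the neuron list.

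**Figure D4:**
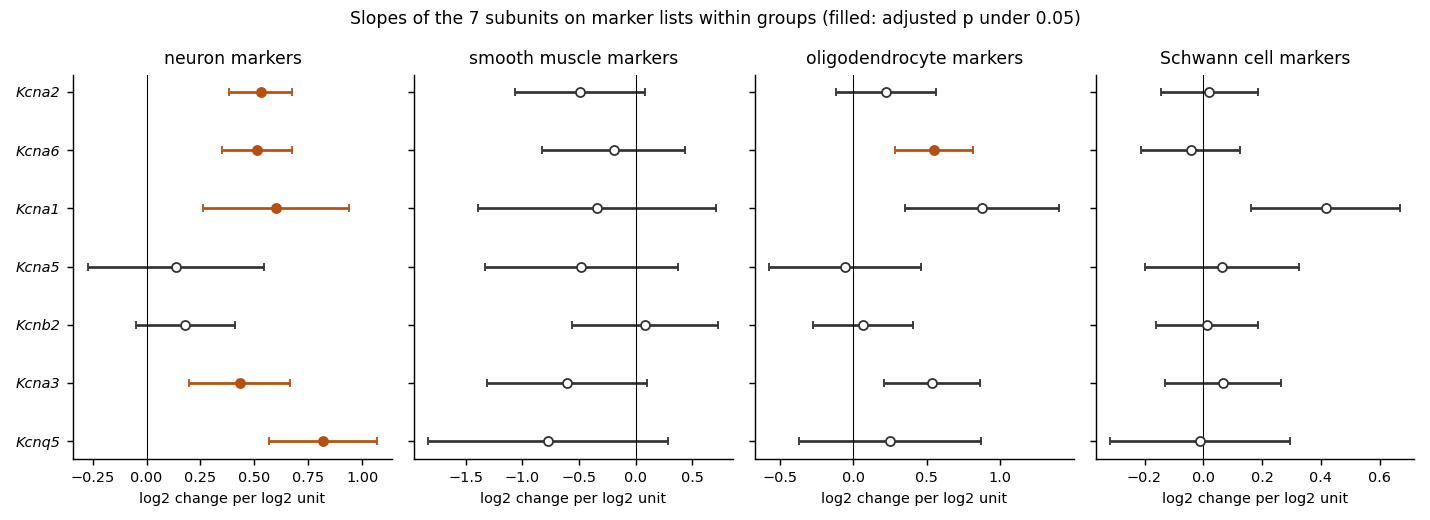
Slope of each subunit on the mean log2 level of 4 marker lists within groups, over 32 libraries, with 95% confidence intervals; filled points have an adjusted p below 0.05 in edgeR's test over all genes, and the horizontal scales differ between panels. On the neuron list *Kcna1*, *Kcna2*, *Kcna3*, *Kcna6* and *Kcnq5* are filled, on the smooth muscle list none, on the oligodendrocyte list *Kcna6*, and on the Schwann cell list none, where *Kcna1* is at 0.42.

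On the glial lists fewer slopes were called. On the oligodendrocyte list *Kcna6* was called with a slope of 0.55 (CI 0.29 to 0.82, adjusted p = 0.0467 in edgeR's test, against 0.42% of genes), and *Kcna1* and *Kcna3* had slopes of 0.88 and 0.54 that were not (adjusted p = 0.161 and 0.172). On the Schwann cell list, which was added after the values of *Kcna1* had been seen, *Kcna1* had a slope of 0.42 (CI 0.16 to 0.67, adjusted p = 0.313 in edgeR's test, against 0.216% of genes called), and the other 6 genes lay between −0.04 and 0.07. None of the 7 was called on the astrocyte, macrophage and microglia or choroid plexus lists, which called 0.512%, 15.2% and 14.7% of genes. *Kcna5* and *Kcnq5* had the most negative slopes on the macrophage and microglia list, −1.36 and −1.88 (adjusted p = 0.105 and 0.0606 in edgeR's test).

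**Figure D5:**
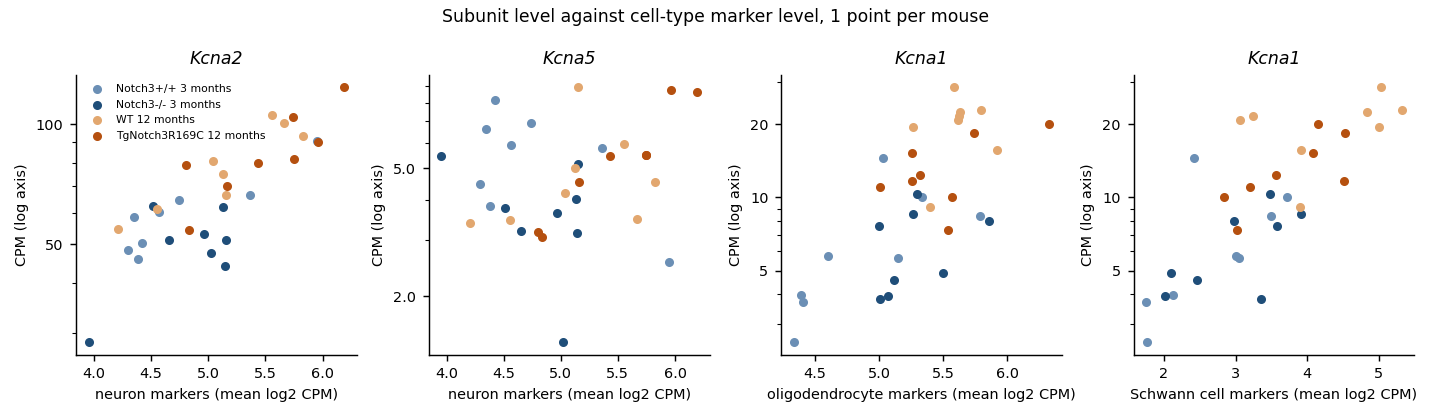
Level of a subunit in CPM (log axis) against the mean log2 CPM of a marker list, with 1 point per mouse and colors for the 4 groups. The slope on the neuron list within groups is 0.53 for *Kcna2*, which was called, and 0.14 for *Kcna5*, which was not, with intervals that overlap, and *Kcna1* is drawn against the oligodendrocyte and Schwann cell lists, with slopes of 0.88 and 0.42, neither of them called.

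The rest of the channel class was followed in the same way. Of the other pore-forming subunits, 22 of 30 tested were called with a positive slope on the neuron list (median slope 1.01, against −0.03 over all genes), among them *Kcnc1* at 1.07 and *Kcnd3* at 0.37. *Kcnq1* and *Kcns3*, which had the lowest slopes and are named for them, were at −0.16 and −0.10. Of the auxiliary subunits 7 of 12 were called, including *Kcnab2* at 0.88, while *Kcnab1*, whose slope on the smooth muscle list is given above, had one of 0.11 on the neuron list (adjusted p = 0.477 in edgeR's test) and *Kcne4* one of −0.12. On the choroid plexus list *Kcnab1* had a slope of −0.09 (adjusted p = 0.00211 in edgeR's test). All 7 axonal partners of Kv1 channels were called, with slopes from 0.46 (*Dlg4*) to 0.89 (*Cntnap2*).

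The genes whose levels ran most closely with each subunit were sought among 15538 genes, as Pearson's r of log2 CPM over 32 libraries after the group means were subtracted. The libraries share depth and tissue makeup, so r is given as a description. For *Kcna2* they included *Dpp10*, an auxiliary subunit of Kv4 channels (r of 0.841). For *Kcna6* they were *Mapt*, which encodes tau, *Galnt17* and *Tubb4a* (0.872 to 0.885), and for *Kcnq5* *Akap5*, a scaffold of synapses, *Kcnv1*, a silent potassium channel subunit, and *Plcb1* (0.867 to 0.889). *Kcna3* ran with *Shisa7*, *Xkr4* and *Zfp831* (0.789 to 0.792), and *Kcnb2* with *Lrrn3*, *4632404H12Rik* and *Gm47163* (0.796 to 0.808).

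The nearest genes to *Kcna1* were *Lrrc2*, *Mlip* and *Gm45869* (r from 0.795 to 0.805). Those of *Kcna5* were *Lrrc8a*, a subunit of the volume-regulated anion channel, *Chka*, a choline kinase, and *Bcl2l1*, an inhibitor of cell death (0.768 to 0.833). Among the 7 subunits, *Kcna1*, *Kcna2*, *Kcna3*, *Kcna6* and *Kcnq5* correlated with one another at r of 0.41 to 0.66. *Kcnb2* had r of 0.63 with *Kcnq5* and 0.43 with *Kcna3*, within that range, and 0.12 to 0.23 with *Kcna1*, *Kcna2* and *Kcna6*. *Kcna5* had r between −0.52 (*Kcnb2*) and 0.09 (*Kcna2*) with the other 6.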

How the data were processed

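RNA of dissected brain arteries was sequenced from 32 mice, 1 library each, as stranded poly(A) libraries. The authors deposited a table of counts that were not normalized, with 1 row per Ensembl gene. The submitters' processing notes name bcl2fastq 2.20.0.422, cutadapt 1.10, Bowtie2 2.2.8, STAR 2.5.3a, HTSeq 0.6.1p1 and the mm39 build, without saying which step each served. How the counting treated strand and multiply mapped reads is not given in the sources used here. All 32 columns were matched to samples by their names, and groups of 8 mice came from the labels.

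From these counts, genes were filtered with filterByExpr, scaled by TMM and tested 1 comparison at a time with edgeR 4.0.16 (quasi-likelihood test, R 4.3.3), and p-values were Benjamini-Hochberg adjusted over all genes tested (threshold 0.05). The difference between the mutants' changes and the slopes were fitted over all 4 groups. Marker lists were compared by exact permutation tests. Levels per kilobase used exon lengths of GENCODE vM21, which gave symbols for 52081 of 55357 identifiers. Libraries held 20289487 to 54481934 counts, and every 2 libraries of a group differed by more than sampling noise (chi-square per gene of 10.87 or more). Total counts limit precision by counting error only in part, since p-values also carry the spread between mice.

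The genes, lists and comparisons were chosen with earlier results of these data known. Text names the 7 genes, *Notch3*, genes of the channel lists that were called or were among the 5 highest per kilobase, and for each of the 7 the 3 genes nearest by correlation (mean of at least 1 CPM); others are named as chosen after their values were seen. Some genes that this rule names, and 1 sequence, are not reported here. Alternatives were RLE and upper-quartile scaling, no filter or a minimum of 10 counts in every library, DESeq2 1.42.0, limma 3.58.1 (voom), 1 fit of all groups, the replicate number as a block, marker lists or *Xist* as covariates, another summary of the lists, and each library left out. Covariates for choroid plexus and Schwann cell lists, fits without libraries rich in choroid plexus RNA (mean log2 CPM of the list above 6), the Schwann cell slope, and slopes without the 2 libraries farthest from the median were added after seeing the data. Scripts were tested on simulated data.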

Additional observations from a re-analysis of the deposited data

Results flagged for a closer look

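Among the 28 sets of 8 mice (7 genes in 4 groups), 5 held a mouse whose gap to its nearest neighbor, as a share of the range, was above Dixon's 95% limit for 8 samples, where chance gives about 1 in 20, or 1.4 sets.

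*Notch3*+/+ replicate 3 stood above its group for *Kcnq5* (18.4 CPM, the next mouse at 5.92, share 0.801) and for *Kcna2* (90.8 CPM, the next at 66.6, share 0.541). Its neuron list, at a mean log2 CPM of 5.95, was the highest of its group. Tg*Notch3*R169C replicate 6 stood above its group for *Kcna6* (29.8 CPM, the next at 20.7, share 0.606) and for *Kcna3* (3.99 CPM, the next at 2.74, share 0.555). Its neuron list was at 5.96, below that of replicate 5 at 6.19. Its oligodendrocyte list, at 6.33, was the highest of its group. WT replicate 4 stood above its group for *Kcna5* (8.94 CPM, the next at 5.96, share 0.535), and it was one of the 7 libraries rich in choroid plexus RNA, with that list at 25436 CPM.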

How the results depend on the processing

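Over 42 fold changes and slopes of the 7 genes, 454 of 483 values under other settings and 990 of 1008 values with 1 library left out kept their direction and their side of the threshold. Between the control groups 1 of the 7 genes was called, and 0 with the smooth muscle list, with the neuron and smooth muscle lists (*Kcna1* at 1.39, edgeR's adjusted p = 0.221) or with the Schwann cell list as covariates. With 1 library left out it was 1 to 2, where *Kcna2* was added without *Notch3*+/+ replicate 3. The neuron slope was called for 4 to 5 genes. The cause was not tested.

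Values near 0 that turned sign were the following, on the log2 scale. For *Notch3*-/- mice, *Kcna1* was 0.051 in limma voom, *Kcna3* 0.0075 and *Kcnb2* 0.0018 without libraries rich in choroid plexus RNA, and *Kcnb2* 0.026 and *Kcnq5* 0.074 with the neuron and smooth muscle lists. For Tg*Notch3*R169C mice, the neuron list gave −0.093 for *Kcna2*, −0.11 for *Kcna5* and −0.058 for *Kcna6*, and the smooth muscle list gave −0.028 for *Kcna2*, −0.17 for *Kcna5* and −0.057 for *Kcnq5*. Both lists gave −0.041 for *Kcna2*, −0.28 for *Kcna5* and −0.087 for *Kcnq5*. Without choroid-rich libraries *Kcna2* was −0.054, *Kcna6* −0.016 and *Kcnq5* −0.12. Between controls, *Kcna3* was 0.044 with the choroid plexus list and 0.0078 without choroid-rich libraries, and *Kcnb2* 0.075 with both lists. The difference between the mutants was −0.071 for *Kcna6* with both lists. Without choroid-rich libraries the slope of *Kcna5* was −0.14 on the neuron and 0.049 on the smooth muscle list, and that of *Kcnb2* on the smooth muscle list was −0.44, and −0.13 with the list's median.

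With 1 library left out, *Notch3*-/- values ran from −0.21 to 0.18 for *Kcna1*, −0.16 to 0.019 for *Kcna3*, −0.14 to 0.0061 for *Kcna6*, −0.20 to 0.042 for *Kcnb2* and −0.51 to 0.081 for *Kcnq5*. *Kcna6* in Tg*Notch3*R169C mice ran from −0.020 to 0.18, *Kcnq5* between controls from −0.44 to 0.145, and the smooth muscle slope of *Kcnb2* from −0.10 to 0.24.

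The replicate number as a block called 0, 0, 1 and 0 of the 7 genes in the *Notch3*-/-, Tg*Notch3*R169C, control and mutant-difference comparisons, and turned *Kcna1* in *Notch3*-/- mice to 0.019. It called 97, 6, 715 and 63 genes in all, against 115, 20, 1398 and 65 without it. Same-numbered mice had correlations of −0.40 to 0.58, so the numbers were not taken to pair them. DESeq2 called 280, 74, 2365 and 153 genes in these comparisons. In the *Notch3*-/- comparison the smooth muscle list and both lists left 15 and 11 genes and the fit of all groups 174. In the Tg*Notch3*R169C comparison the neuron list, both lists, the Schwann cell list and the fit without choroid-rich libraries gave 12, 67, 9 and 2. Between controls the choroid plexus list, the Schwann cell list and the fit without choroid-rich libraries gave 303, 83 and 402, and both fits with the smooth muscle list 0. Without choroid-rich libraries 39 genes differed between the mutants.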
